A study of Homo sapiens with 8 samples.

Results

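The 9 genes described here were S100A2, S100A3, S100A4, S100A5, S100A6, S100A8, S100A9, S100A10 and S100A11, out of 17133 genes annotated on the promoter arrays. They were chosen by name. All non-control probes that carried the name of one of these genes, or an annotated distance to its transcription start, were taken, which gave 275 probes, all of them annotated to chromosome 1. The arrays compared DNA precipitated with an antibody to SMAD3 (SMAD3 IP, labelled with Cy5) and DNA of a mock precipitation (mock IP, Cy3) from A549, a cell line from a human lung carcinoma. The cells were left untreated (basal level) or received 2 ng/ml TGFβ1 for up to 2 h, as the protocol states. For its promoter arrays the paper reports a shorter stimulation within that limit. There were 2 replicates of each condition. The labels call them biological replicates and name the mock antibody as anti-FLAG, while the protocol in the labels names a control IgG. Both conditions shared the cell line and the precipitation procedure. No array carried swapped dyes, so a difference between the antibodies cannot be told apart from a difference between the dyes.

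S100 proteins are small calcium-binding proteins of the EF-hand type that mostly act as dimers and change the behaviour of the proteins they bind. Several of them are also secreted, and S100A8 and S100A9 form the heterodimer calprotectin, a ligand of the receptors TLR4 and AGER on cells of the innate immune system. S100A4 is known for its binding to non-muscle myosin and for its association with cell migration and metastasis. SMAD3 is the signal transducer that receptors for TGFβ phosphorylate. It then enters the nucleus with SMAD4 and binds DNA at short elements, of which the best known is CAGAC, or GTCTG on the other strand.

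The promoters of S100A4, S100A11 and S100A9 are shown because these 3 members had a measured probe that changed between the conditions and lay inside this window by its annotated distance. They were taken from RefSeq on GRCh38.p14, from 250 bases upstream to 50 bases downstream of the start, and are written 5′ to 3′ on the strand of the gene with CAGAC and GTCTG in capitals. The study's methods name UCSC hg17 for its genomic analyses and the array files name no build, so the spacing of the starts was compared instead. Relative to the start of S100A4, the annotated start of S100A9 differed from its RefSeq start by 1 bp and that of S100A11 by 32 bp. The difference was 250 bp at S100A6 and 380 bp at S100A10. A second RefSeq start differed by 1943 bp at S100A2 and by 831 bp at S100A5. Distances of probes in the text are those annotated for the array.
S100A4, chr1:153545757-153546056, minus strand: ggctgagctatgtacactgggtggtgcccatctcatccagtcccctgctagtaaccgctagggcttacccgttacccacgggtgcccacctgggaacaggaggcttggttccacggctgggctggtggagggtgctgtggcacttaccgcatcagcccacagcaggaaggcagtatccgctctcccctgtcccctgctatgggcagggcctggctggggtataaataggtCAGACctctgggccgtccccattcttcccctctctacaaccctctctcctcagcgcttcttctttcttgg
S100A11, chr1:152036955-152037254, minus strand: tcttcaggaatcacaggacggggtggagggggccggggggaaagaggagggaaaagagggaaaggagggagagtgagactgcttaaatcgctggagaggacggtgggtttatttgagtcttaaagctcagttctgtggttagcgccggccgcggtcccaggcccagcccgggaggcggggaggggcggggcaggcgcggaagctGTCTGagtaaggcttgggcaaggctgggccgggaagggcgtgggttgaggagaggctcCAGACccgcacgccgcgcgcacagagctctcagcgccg
S100A9, chr1:153357604-153357903, plus strand: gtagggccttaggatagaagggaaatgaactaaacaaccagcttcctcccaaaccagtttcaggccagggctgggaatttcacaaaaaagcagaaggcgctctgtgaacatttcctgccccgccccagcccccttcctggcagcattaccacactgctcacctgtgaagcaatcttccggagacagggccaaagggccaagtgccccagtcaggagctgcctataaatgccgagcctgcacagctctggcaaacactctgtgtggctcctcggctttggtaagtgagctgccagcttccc
In the S100A4 window 1 CAGAC began at position −20, counted from the start. In the S100A11 window 1 GTCTG began at −46 and 1 CAGAC at 13. The S100A9 window held neither word. Over all 35116 RefSeq promoters of this length, 45.3% held at least one of them, so their presence in a single window is common.

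Of the 275 probes, 274 were tested, since 1 probe of S100A6 had been marked as an outlier by the scanner software. Per gene there were between 19 probes (S100A4) and 48 probes (S100A9), and 35 of the S100A9 probes were also annotated to the neighbouring gene PGLYRP4. No probe was shared between members. Values are log2 ratios of SMAD3 IP to mock IP, centred on the median of each array, so that 0 is the array median. A value below 0 means less SMAD3 IP than mock IP signal relative to that median. In the text, below or above the mock IP means below or above this 0, which need not be equal signals. Before centring the medians of the 4 arrays that carry these probes were 0.24 to 0.63. A probe is called measured here when both channels were well above background in all 4 replicates, which 115 of the 274 probes were. The other 159 had at least one channel near background, where the ratio is only a bound. A measured probe could still have a channel near the array median. At S100A8, −3505 bp, for example, the mock IP signal was 0.04 in basal replicate 1, as log2 over that median. Between the replicates of one condition the log2 ratios of the 274 probes correlated with r = 0.83 for basal and r = 0.93 for stimulated cells, while across conditions r was 0.01 to 0.05. Over all probes these values were 0.90, 0.92 and 0.20 to 0.23. The probes of an array share one hybridisation, so these correlations describe the arrays. With 4 arrays the precision of each value was limited.

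At the basal level the promoter means of these genes, other than S100A6, lay below the array median of the ratio. The mean log2 ratio over the probes from −2000 to 800 bp of the start was lowest at S100A8, where the replicates gave −2.58 and −2.83, followed by S100A11 with −1.33 and −1.57 and S100A4 with −1.22 and −1.02. S100A6, the calcyclin gene, was the only member with both replicates above 0, at 0.21 and 0.07. In limma with Benjamini-Hochberg adjustment over 16660 genes, 8 of the 9 members were below the mock IP at an adjusted p under 0.05 and 0 were above it (also 0 at an unadjusted p under 0.05). Of all genes, 37.6% were called below and 20.4% above. S100A6 was not called (adjusted p = 0.296). After TGFβ1 stimulation 7 members were below and 0 were above (0 at an unadjusted p under 0.05), against 42% and 16.4% of all genes. S100A11, with 0.08 and −0.09, and S100A4, with −0.15 and −0.41, were the members that did not pass (adjusted p = 0.975 and 0.0583). The lowest promoter after stimulation was S100A5, with −1.52 and −1.95. From the lowest basal level upwards the order was S100A8, S100A11, S100A4, S100A2, S100A10, S100A5, S100A9, S100A3 and S100A6. The replicates overlapped at 4 of its 8 neighbouring pairs, those from S100A2 to S100A3, while S100A8, S100A11 and S100A4 were each apart from the next and S100A6 was apart from S100A3. After stimulation the order was S100A5, S100A2, S100A3, S100A8, S100A6, S100A10, S100A9, S100A4 and S100A11, and only S100A8 and S100A6, and S100A4 and S100A11, did not overlap as neighbours. The median basal ratio was −0.12 over all genes and −0.69 over the 9 members, and the median stimulated ratio −0.18 and −0.59. With normexp background correction none of the members was called at the basal level (3 at an unadjusted p under 0.05), and with loess or without centring 1 member, S100A6, was called above it, so the position relative to the mock IP depended on these choices.

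**Figure D1:**
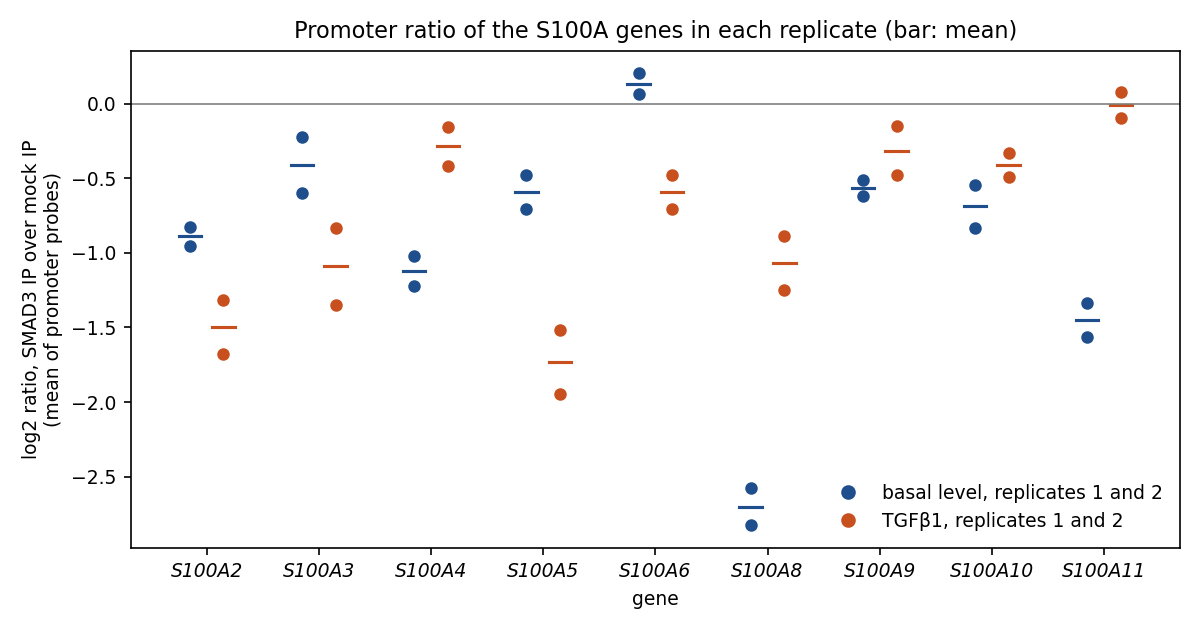
Promoter means of SMAD3 IP over mock IP on a log2 scale (y axis) for the 9 S100A genes (x axis). Each point is a replicate, blue for the basal level and orange for TGFβ1, and the short bars are means of 2 replicates. S100A4, S100A8 and S100A11 were higher after stimulation, and S100A2, S100A3, S100A5 and S100A6 were lower.

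The comparison of the conditions addressed whether SMAD3 occupancy moved with TGFβ1. The ratio rose at 3 members and fell at 4, while 2 did not pass the test. Among all 16660 genes 46.7% were called, 19.9% higher and 26.8% lower, and the 7 of 9 members called are to be read against that background. The replicates of both conditions did not overlap at any of the 9 members, as was the case for 74.7% of all genes. The median change was 0.25 over the members and −0.06 over all genes.

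The largest rise was at S100A8, from −2.58 and −2.83 to −1.25 and −0.88, a change of 1.64 ± 0.17 (SE, adjusted p = 0.00028). At S100A11, which encodes a partner of annexin A1, the change was 1.45 ± 0.15 (adjusted p = 0.000249), from −1.33 and −1.57 to 0.08 and −0.09. S100A4 rose by 0.84 ± 0.15 (adjusted p = 0.00372), from −1.22 and −1.02 to −0.15 and −0.41. All 3 rises led from below the mock IP towards it, and no mean was above 0 after stimulation with median centring, while with loess S100A4 and S100A11 were called above it. For S100A11 only 3 of the 10 promoter probes were measured, and over these 3 the change was 0.69 and no longer passed (adjusted p = 0.175). The rise at S100A8 was 1.85 over measured probes (adjusted p = 0.00518), but 0.75 and no longer called over probes above background in at least 1 channel (adjusted p = 0.0561). It was 2.89 within 500 bp of the start (adjusted p = 0.000156) and 0.51 over all annotated probes of the gene (adjusted p = 0.0191). The rise at S100A4 was 0.90 over measured probes (adjusted p = 0.00825) and 1.35 within 500 bp (adjusted p = 0.00208), while over all annotated probes it was 0.25 and did not pass (adjusted p = 0.128). For S100A11 the value over all annotated probes was 0.71 (adjusted p = 0.00583).

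Among the members that fell, S100A5 moved most, from −0.48 and −0.70 to −1.52 and −1.95, a change of −1.14 ± 0.18 (adjusted p = 0.00191). Within 500 bp of the start the S100A5 change was −0.49 and did not pass (adjusted p = 0.105), whereas it was −2.27 over all annotated probes (adjusted p = 9.41e-05) and −2.73 over measured ones (adjusted p = 0.000132). S100A6 fell from 0.21 and 0.07 to −0.48 and −0.71 (−0.73 ± 0.15, adjusted p = 0.00554). Its call ended within 500 bp (−0.17, adjusted p = 0.53) and over all annotated probes (−0.22, adjusted p = 0.158). S100A3 and S100A2 had the highest adjusted p of the 7 calls. S100A3, which encodes a zinc- and calcium-binding protein of hair, went from −0.22 and −0.60 to −0.83 and −1.35 (−0.68 ± 0.21, adjusted p = 0.0346). The call at S100A3 ended without TGFβ1 replicate 2 (−0.42, adjusted p = 0.204) and without basal replicate 1 (−0.49, adjusted p = 0.0741), with probes above background in at least 1 channel (−0.70, adjusted p = 0.0611) and over all annotated probes (−0.41, adjusted p = 0.0565), while within 500 bp the change was −1.13 (adjusted p = 0.00816). S100A2, expressed in epithelia, went from −0.82 and −0.95 to −1.31 and −1.68 (−0.61 ± 0.16, adjusted p = 0.019). Its call ended without TGFβ1 replicate 2 (−0.43, adjusted p = 0.0911), and over its 9 measured promoter probes the change was −0.06 (adjusted p = 0.829). Over all annotated probes it was −0.28 (adjusted p = 0.0924). Within 500 bp of the start the S100A2 change turned to 0.57 (adjusted p = 0.0485). S100A9 (0.25, adjusted p = 0.232) and S100A10, the annexin A2 partner (0.28, adjusted p = 0.182), did not pass. S100A9 passed with loess (0.36, adjusted p = 0.0315) and without centring (0.41, adjusted p = 0.0401). S100A10 passed with loess (0.42, adjusted p = 0.0188), without centring (0.43, adjusted p = 0.026) and over all annotated probes (0.88, adjusted p = 0.00626). Across the 7 calls, S100A5 was the one that held with normexp background correction (−0.80, adjusted p = 0.0203), and 0 held when the median over the probes of a gene took the place of the mean (2 at an unadjusted p under 0.05).

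The channels were then set beside the ratio. At all 7 called members the mock IP channel moved by more than the SMAD3 IP channel. The share of all called genes with this order was not computed. Over all genes the mock IP changes were also more widely spread, with a standard deviation of 1.12 against 0.77 for the SMAD3 IP. At S100A8 the mock IP signal changed by −3.22 ± 0.76 (SE, log2) and the SMAD3 IP signal by −1.70 ± 0.59, so the ratio rose while both signals were lower. S100A11 gave −1.84 ± 0.45 and −0.50 ± 0.36, and S100A5 gave 1.69 ± 0.36 and 0.43 ± 0.30. At S100A4 the mock IP changed by −0.54 ± 0.42 and the SMAD3 IP by 0.18 ± 0.44. Which channel moved more depended on the basal replicates at 3 members. Without basal replicate 1 the SMAD3 IP moved by more at S100A6 (−0.76 against −0.021 for the mock IP) and at S100A3 (−0.45 against 0.12). Without basal replicate 2 it moved by more at S100A4 (0.78 against −0.014). Without basal replicate 1 the S100A4 values were −1.07 for the mock IP and −0.41 for the SMAD3 IP. At S100A4 the SMAD3 IP also moved by more with normexp, over all annotated probes and within 500 bp, and at S100A2 with either filter on dim probes. At S100A5, S100A8 and S100A11 the mock IP moved by more in each of the 12 alternatives run on the channels. In limma 0 of the 9 members were called in the SMAD3 IP channel (1 at an unadjusted p under 0.05) and 0 in the mock IP channel (3 at an unadjusted p under 0.05), against 2.53% and 13.8% of all genes. The mock IP change depended on the basal replicates, whose signals differed. At S100A8 it was −4.26 without basal replicate 1 and −2.19 without basal replicate 2. Counts of calls without 1 replicate moved over all genes too in both channels, so they say little about the members. At S100A8, for example, the mock IP signal was 4.26 and 6.33 before and 2.20 and 1.94 after stimulation, as log2 over the array median. The part of the mock IP in the changes of the ratio was not tested further.

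**Figure D2:**
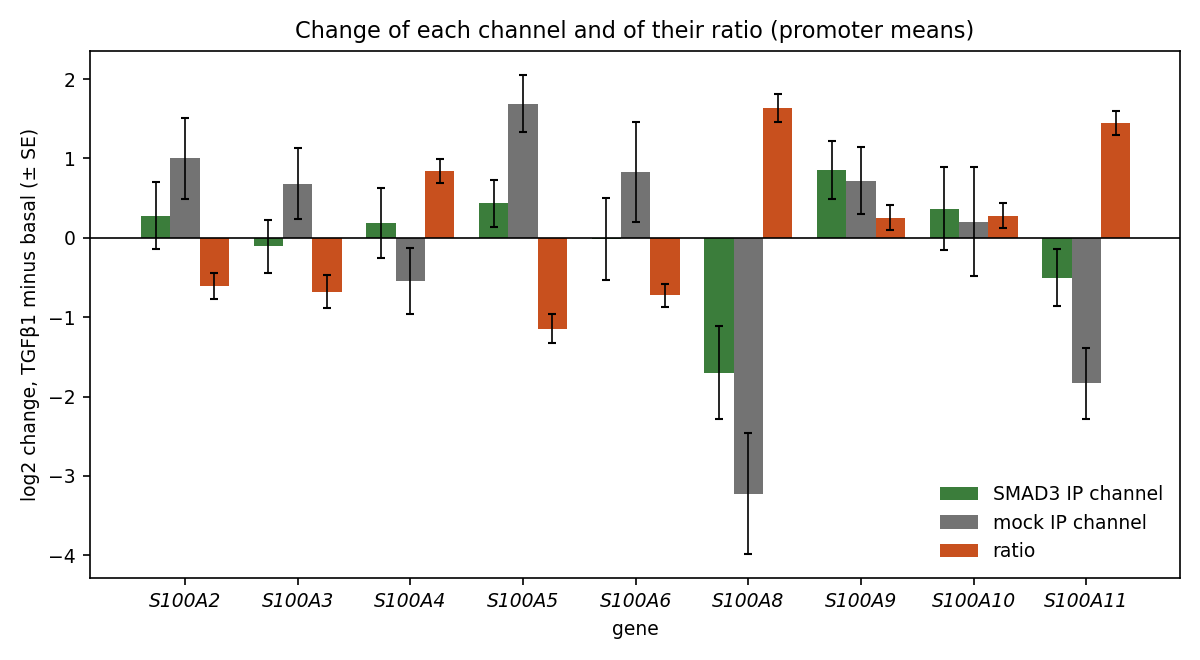
Change between conditions (TGFβ1 minus basal, log2, y axis) of the SMAD3 IP channel (green), the mock IP channel (grey) and their ratio (orange) at the 9 promoters, with SE bars from limma. At S100A8 and S100A11 the grey bar is the longest and points down, and at S100A5 it is the longest and points up.

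The probes of a gene often moved in opposite directions. Of the 274 member probes 83 changed (30.3%), 35 of them higher and 48 lower, against 22.9% of all 473007 probes (10.5% higher and 12.4% lower). Among the 115 measured probes 52 changed (45.2%), 18 higher and 34 lower, against 44.4% of all measured probes (19% higher and 25.5% lower). The count fell among the member probes, and also among all probes, when any 1 replicate was left out. Of the 52 called measured probes 37 had a measured neighbour of the same gene within 250 bp. Of the 43 probes named by rule, 31 were called, and 9 of these stayed called when any one replicate was left out: S100A2 at −3422 bp, S100A3 at 1248 and −1004 bp, S100A4 at 983 and 707 bp, S100A5 at 2164 bp, S100A6 at 541 bp, S100A9 at −9020 bp and S100A10 at 1480 bp. The other 22 lost the call in at least 1 of these 4 settings, with an adjusted p of at most 0.205. In 10 of the 37 cases with a measured neighbour a neighbour was called in the same direction, in 4 a neighbour was called in the opposite direction, and in 23 no neighbour was called. Across the 53 pairs of adjacent measured probes the log2 ratios correlated with r = 0.30 at the basal level and 0.16 after stimulation, against 0.32 and 0.32 over all genes. Pairs share the array and often the gene, so these values are a description.

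**Figure D3:**
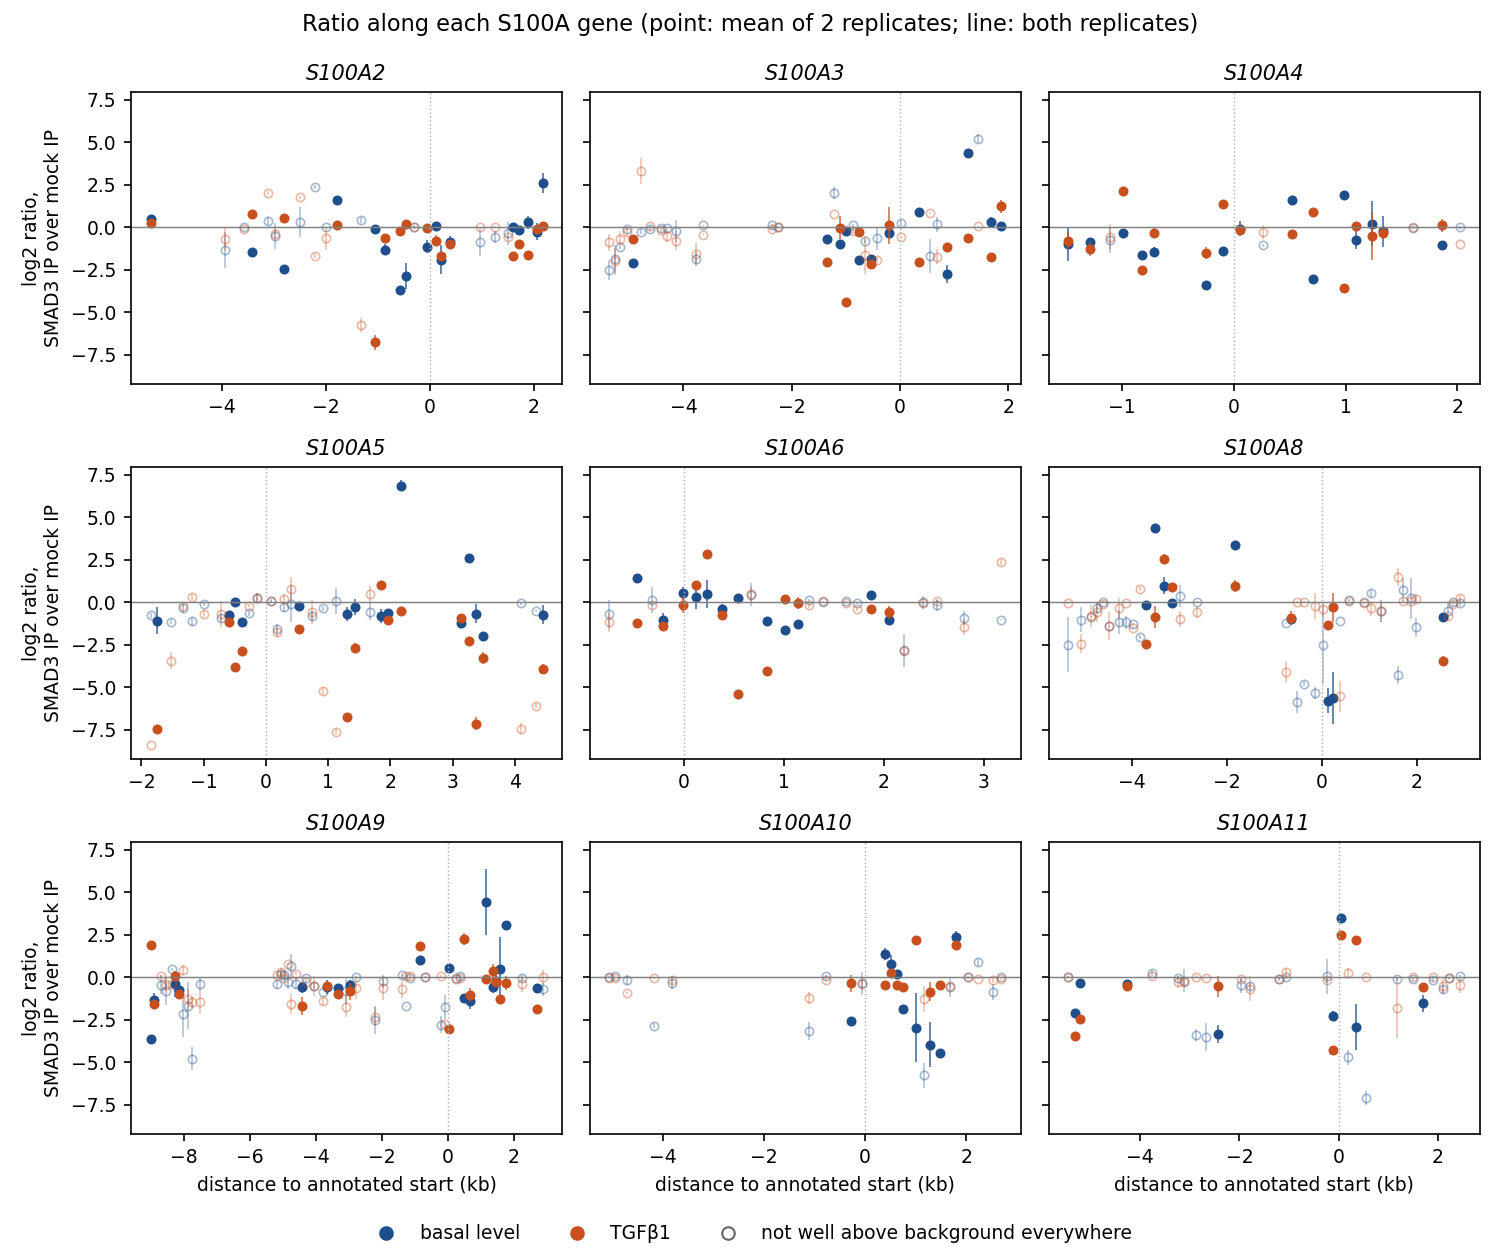
SMAD3 IP over mock IP, log2 (y axis), against the distance to the annotated start in kb (x axis, not the same scale in each panel) for the 9 genes. Filled points are measured probes, open points had at least one channel near background, blue is the basal level, orange is TGFβ1, and vertical lines join both replicates. The S100A5 panel shows orange points below blue ones at most measured probes, while in the S100A4 panel they lie on either side.

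S100A5, whose product is known from olfactory neurons, had the most probes that fell. Of its 33 probes 16 fell and 2 rose, where 12.4% of all probes fell, and of its 15 measured probes 10 fell and 1 rose. Below the mock IP there were 7 of 33 probes at the basal level and 20 after stimulation, against 17.4% and 18.5% of all probes. The probe at 2164 bp downstream of the start had the largest change of the 115 measured probes, from 7.18 and 6.55 to −0.49 and −0.56 (−7.39 ± 0.27, adjusted p = 0.00261). There the SMAD3 IP signal changed by −0.37 and the mock IP signal by 7.13. The probe at 3372 bp went from −0.10 and −1.22 to −6.76 and −7.52, and the probe at −1750 bp from −0.28 and −1.86 to −7.19 and −7.66. At these probes the ratio was strongly negative in both stimulated replicates and in neither basal replicate. Nearest to the start, at −382 bp, the values were −1.09 and −1.25 at the basal level and −2.77 and −2.92 after stimulation. At all 10 measured probes that fell, the mock IP channel moved by more than the SMAD3 IP channel. A single measured probe of S100A5 rose, at 1854 bp, from −0.42 and −1.23 to 1.1 and 0.96 (adjusted p = 0.0448).

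At S100A4 the SMAD3 IP channel moved by more than the mock IP channel at 5 of 6 called measured probes. The count was also 5 of 6 at S100A3, 4 of 6 at S100A8 and 1 of 11 at S100A5, and over all genes the mock IP moved by more at 58.0% of such probes. The difference between members was not tested. Of the 15 measured probes of S100A4 4 rose and 2 fell. The probe at −97 bp, over the printed promoter, went from −1.38 and −1.45 to 1.59 and 1.13 (2.78 ± 0.21, adjusted p = 0.00708), with a SMAD3 IP change of 3.25 and a mock IP change of 0.58. At −985 bp the values went from −0.52 and −0.14 to 2.14 and 2.07 with a SMAD3 IP change of 2.21, the highest measured ratio of this gene after stimulation. At 707 bp they went from −3.21 and −2.92 to 0.93 and 0.86. These 3 probes led from below the mock IP to above it in both replicates. Downstream of it, at 983 bp, the direction was opposite, from 1.73 and 2.05 to −3.50 and −3.67 (−5.47 ± 0.17, adjusted p = 0.00231). The measured probe nearest to the start, at 58 bp, gave 0.38 and −0.54 against 0.10 and −0.42 and did not pass (adjusted p = 0.935).

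Around the start of S100A11 both signs occurred within a short distance. The probe at 50 bp was above the mock IP in both conditions, with 3.70 and 3.31 at the basal level and 2.66 and 2.27 after stimulation, and its change did not pass (adjusted p = 0.074). The probe at −111 bp was below it in both, with −1.96 and −2.58 against −4.05 and −4.51 (−2.01 ± 0.32, adjusted p = 0.0342). By their annotated distances both lie within the window printed above, the probe at 50 bp at its edge. The annotated and RefSeq starts differ by 32 bp relative to S100A4, and no probe sequence was placed on the window. The other called measured probe of S100A11, at −5214 bp, also fell, from −0.18 and −0.45 to −2.22 and −2.68 (adjusted p = 0.0148). The measured probe at 346 bp went from −1.57 and −4.28 to 2.37 and 2.05, and its change of 5.13 ± 1.08 did not pass (adjusted p = 0.0623), with basal replicates that lay far apart. No measured probe of S100A11 was called higher, although the promoter mean was.

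S100A8 and S100A9, the calprotectin genes, each held called probes of both directions. The difference between these genes was not tested. At S100A8 the measured probe nearest to the start, at 133 bp, was far below the mock IP at the basal level (−6.51 and −5.05) and less so after stimulation (−1.58 and −1.13), a change of 4.43 ± 0.61 (adjusted p = 0.0248). The mock IP signal of this probe changed by −5.48 and the SMAD3 IP signal by −1.17. Far upstream, at −3505 bp, S100A8 was at 4.46 and 4.25 at the basal level and at −0.21 and −1.54 after stimulation (adjusted p = 0.0134), with a SMAD3 IP change of −4.50. At −1821 bp the direction was the same, with 3.21 and 3.48 against 1.28 and 0.60 (adjusted p = 0.0203). Of the 6 measured probes upstream of the S100A8 start 4 were called, 3 lower and 1 higher. The third that fell was at −3691 bp (−0.20 and −0.16 against −2.20 and −2.73, adjusted p = 0.0125). The one that rose was at −3155 bp (0.0037 and −0.10 against 1.08 and 0.77, adjusted p = 0.035). The highest measured probe after stimulation lay between these upstream probes, at −3319 bp, with 1.47 and 0.50 against 2.24 and 2.84, and its change did not pass (adjusted p = 0.13). Downstream, at 2560 bp, the ratio fell from −0.89 and −0.89 to −3.17 and −3.71 (adjusted p = 0.0106). Probes of either direction thus lay close together upstream of S100A8. At S100A9 the probe at 16 bp, over the printed promoter, fell from 0.36 and 0.76 to −2.81 and −3.32 (−3.62 ± 0.27, adjusted p = 0.00743), whereas the probe at 480 bp rose from −0.99 and −1.40 to 2.60 and 1.88 (3.44 ± 0.34, adjusted p = 0.0126). The probe at −865 bp was above the mock IP in both conditions, with 0.84 and 1.14 against 1.87 and 1.81. The highest measured basal probe, at 1158 bp, had replicates far apart (2.48 and 6.39) against 0.13 and −0.34, and its change did not pass (adjusted p = 0.174). The probe at −9020 bp, also annotated to PGLYRP4, had the largest rise of the measured S100A9 probes, from −3.81 and −3.46 to 1.90 and 1.95.

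The remaining members carried single probes with large changes, while the measured probe nearest to the start was called at none of them. At S100A2 that probe, at −64 bp, gave −0.74 and −1.53 against 0.12 and −0.16 (adjusted p = 0.141). The probe at −1051 bp went from −0.18 and 0.02 to −6.34 and −7.20 (−6.69 ± 0.36, adjusted p = 0.00427), with a mock IP change of 9.65, while the probe at −568 bp went from −3.95 and −3.47 to −0.02 and −0.42. Farther upstream the ratio rose, at −2814 bp from −2.53 and −2.42 to 0.78 and 0.28 (adjusted p = 0.00728) and at −3422 bp, the highest after stimulation, from −1.59 and −1.33 to 0.85 and 0.70 (adjusted p = 0.0061). The highest basal probe, at 2166 bp, fell from 2.03 and 3.18 to 0.10 and 0.018 (adjusted p = 0.0461). S100A2 thus held called probes of both directions on the upstream side. At S100A3 the probe nearest to the start, at −211 bp, had stimulated replicates of opposite sign (−0.22 and −0.49 against 1.19 and −0.97, adjusted p = 0.819). The probe at 1248 bp went from 4.27 and 4.51 to −0.57 and −0.67 (−5.01 ± 0.14, adjusted p = 0.00214). Here the SMAD3 IP signal changed by −4.63 and the mock IP signal by 0.49. At −1004 bp the ratio fell from −0.21 and −0.28 to −4.32 and −4.46 (adjusted p = 0.0021), and at 353 bp from 0.85 and 0.89 to −2.28 and −1.80 (adjusted p = 0.00698). The highest probe of S100A3 after stimulation, at 1870 bp, gave 0.20 and −0.013 against 1.62 and 0.87 and did not pass (adjusted p = 0.116).

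At S100A6 the probe at −10 bp gave 0.91 and 0.15 against 0.35 and −0.65 and did not pass (adjusted p = 0.551). The probe of S100A6 at 541 bp went from 0.16 and 0.31 to −5.32 and −5.44 (−5.61 ± 0.12, adjusted p = 0.00203), with a mock IP change of 4.67. The probe of S100A6 at −468 bp fell from 1.67 and 1.14 to −1.11 and −1.36, with a SMAD3 IP change of −3.58. At 825 bp the ratio fell from −0.91 and −1.24 to −3.80 and −4.29 (adjusted p = 0.00912). The highest probe after stimulation, at 230 bp, went from −0.36 and 1.33 to 2.94 and 2.75, above both basal replicates, but did not pass (adjusted p = 0.121). The probes of S100A6 thus differed in the channel that moved more. At S100A10, which encodes a member of the family that has lost calcium binding, the probe nearest to the start, at −269 bp, was below the mock IP at the basal level (−2.38 and −2.75) and nearer to it after stimulation (0.13 and −0.85), and its change did not pass (adjusted p = 0.0507). The probe at 1480 bp rose from −4.61 and −4.29 to −0.28 and −0.58 (4.02 ± 0.20, adjusted p = 0.00373), with a mock IP change of −6.02. At 746 bp S100A10 rose from −2.03 and −1.69 to −0.37 and −0.72 (adjusted p = 0.035), and at 393 bp it fell from 1.73 and 1.03 to −0.25 and −0.67 (adjusted p = 0.0457). Its highest probe after stimulation, at 1010 bp, went from −0.95 and −4.95 to 2.18 and 2.27 and did not pass (adjusted p = 0.138). The probe at 1805 bp of S100A10 was above the mock IP in both conditions, with 2.72 and 1.99 against 1.97 and 1.78.

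**Figure D4:**
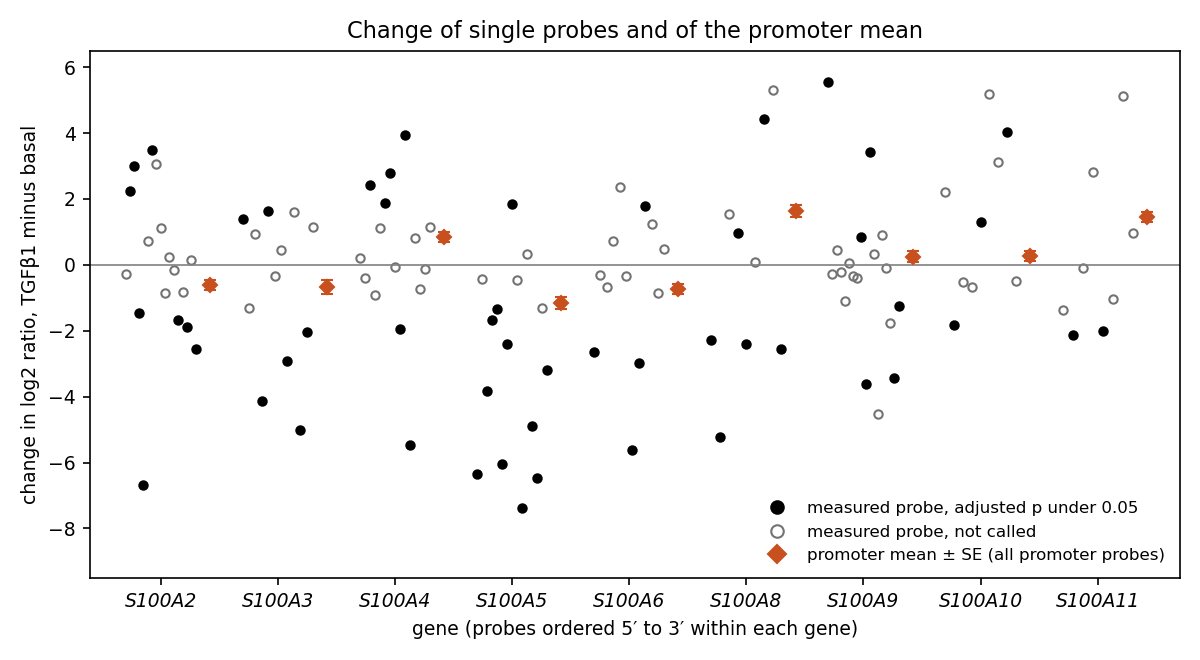
Change in log2 ratio (TGFβ1 minus basal, y axis) of each of the 115 measured probes, ordered along each gene (x axis), with filled points for an adjusted p under 0.05 in limma, and the promoter mean over all promoter probes with its SE (diamonds). Called probes lie on both sides of 0 in every gene but S100A11, where the 2 called probes lie below 0 and the diamond above it.

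Above the mock IP, as SMAD3 occupancy would be read from these arrays, there were 21 of 274 probes at the basal level and 17 after stimulation, against 8.92% and 8.22% of all probes. Measured probes above it numbered 16 and 13 of 115, against 22.5% and 20.9% of all measured probes, and 3 of them were above it in both conditions, namely those of S100A9 at −865 bp, S100A10 at 1805 bp and S100A11 at 50 bp. Of the 52 called measured probes, the mock IP channel moved by more than the SMAD3 IP channel at 27 (51.9%).

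Along the distance to the start, calls in both directions occurred at every distance up to 2000 bp downstream. Within 500 bp of the start 8 of 49 probes rose and 8 fell, and from there to 2000 bp downstream 7 of 68 rose and 15 fell. Upstream of −2000 bp 12 of 82 rose and 6 fell. Beyond 2000 bp downstream 1 of 31 rose and 10 fell, among them 7 measured probes, of which 4 belonged to S100A5. The shares of all probes in the same ranges of distance were not computed. Whether these counts differ from those of other genes was therefore not tested.

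By the Euclidean distance over the 4 promoter means, S100A9 and S100A10 were most alike (0.28), then S100A2 and S100A5 (0.55) and S100A4 and S100A11 (0.68). S100A8 was farthest from all others, its nearest being S100A11 at 2.36.

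Other S100 genes and S100 partners were taken as context. Of 11 other S100 genes 10 had promoter probes, and 3 rose (S100A14, S100B, S100P) and 4 fell (S100A1, S100A7, S100A16, S100Z). The largest change among them was at S100P, 1.69 ± 0.15 (adjusted p = 0.000119), with a mock IP change of −1.09. Of 10 receptors and protein partners 1 rose and 3 fell. Among those that fell was ANXA2, the annexin bound by S100A10 (−0.52 ± 0.15, adjusted p = 0.0239). TLR4, a receptor of calprotectin, was also called lower (−0.97 ± 0.16, adjusted p = 0.00256). Of the 5 promoter probes of TLR4 0 were measured, so its ratios are only bounds. The median change was 0.13 over the other S100 genes and −0.25 over the partners. These shares stand against the 46.7% of all genes that were called.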

How the data were processed

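Chromatin of A549 cells was precipitated from basal and TGFβ1-stimulated cells, and 8 two-colour arrays (2 slides of different probes for each of 2 replicates per condition) were used. All probes of the S100A genes lie on 1 slide, so 4 arrays carry them. Groups and replicate numbers came from the sample labels.

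The authors deposited Cy5 and Cy3 spot intensities from Agilent Feature Extraction 9.5.1.1 (per the labels), background-subtracted, detrended and scaled per dye, with surrogate values for signals near background. The deposited series matrix holds the log2 of processed Cy5 over processed Cy3, from which the intensities differed by at most 3.13e-06. It was used as an alternative. The study's methods name UCSC hg17 for its genomic analyses, and the array files name no build for the probe positions.

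Control spots and 1404 outlier probes were left out. Log2 ratios were centred on each array's median (0.24 to 0.72 before centring), and 38.7% to 51.5% of the probes of an array exceeded background clearly in both channels. Gene values are means of the probes from −2000 to 800 bp of the annotated start. Basal and stimulated values were tested against 0, and against each other, with limma 3.58.1 (lmFit and eBayes, R 4.3.3) over 16660 genes or 473007 probes, two-sided, with Benjamini-Hochberg adjustment at 0.05. The functions were tested on simulated data, in which 200 of 16660 genes carried a change, far fewer than were called here. At a log2 change of 0.5 or 1, 0 of these 200 were recovered, and at 2 it was 85.5%. The arrays were scanned in a single session, and no slide holds more than 1 array. The p-values measure the spread between these arrays.

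Members and context lists were chosen with earlier results of these data known. For each gene the text names the measured probe nearest to the start, at most the 3 called measured probes with the largest change, and the highest measured probe in each condition. A few other probes (S100A8 at −3691, −3155 and −1821 bp, S100A9 at −865 bp and S100A11 at 346 bp) were named after their values were seen. Motifs were counted in the RefSeq promoters, not in probes, since no probe sequences were used here. Alternatives comprised normexp (offset 50), loess, uncentred values, filters on dim probes, outliers kept, other windows, the median over probes, neighbours within 250 bp, separate fits per slide, a replicate block and leaving out each replicate. The peak-finding program of the study was not used here. Figures were drawn with matplotlib 3.10.9.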

Additional observations from a re-analysis of the deposited data

How the results depend on the processing

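Of the 9 gene-level changes, 126 recomputed values gave 92 with the same direction and side of the threshold, 27 that no longer passed, 5 that newly passed and 2 that turned, both at S100A2 (0.24 with the median over the probes and 0.57 within 500 bp of the start). Over 88 single values and 1135 recomputations, 899 were unchanged in this sense, among them 55 that changed sign without passing in either setting, 163 no longer passed, 55 newly passed and 18 turned. None of the 43 named probes turned.

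Against 7 members called in the change, 1 was called with normexp background correction, 3 with probes above background in at least 1 channel, 4 with all annotated probes, 0 with the median over probes (2 at an unadjusted p under 0.05) and between 5 and 7 when each replicate was left out. With loess, and also without centring, 9 of 9 were called, 5 higher and 4 lower. Of all 16660 genes loess called 4143 higher and 3917 lower, and the uncentred values 4447 and 3584. At the basal level 0 members were called with normexp (3 at an unadjusted p under 0.05), 5 with measured probes only, 1 with the median, and 7 to 8 without one replicate. After stimulation these counts were 4, 4, 0 (3 at an unadjusted p under 0.05) and 5 to 8. In the mock IP channel 2 were called with measured probes only. There was 1 each with probes above background in at least 1 channel, with all annotated probes and within 500 bp of the start. Leaving out 1 replicate moved the mock IP count among the members and also over all genes. In the SMAD3 IP channel 1 was called with probes above background in at least 1 channel. Of the member probes, normexp called 31 for the change, 7 at the basal level and 41 after stimulation. Leaving out one replicate gave 39 to 52, 39 to 62 and 42 to 67. Averaging neighbours within 250 bp called 121 at the basal level (17 above and 104 below). The uncentred values called 120 after stimulation (62 above and 58 below).

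Ratios that turned relative to the mock IP were those of S100A3 at the basal level (0.041 with loess, 0.023 within 500 bp), S100A6 (basal −0.34 with all annotated probes, stimulated 0.057 with normexp and 0.024 within 500 bp), S100A10 (basal 0.30 with normexp, stimulated 0.22 with normexp, 0.040 with loess and 0.11 uncentred), S100A9 (stimulated 0.041 with normexp, 0.088 with loess and 0.20 uncentred), S100A4 (stimulated 0.34 with loess) and S100A11 (stimulated 0.27 with loess and 0.51 uncentred). The mock IP change of S100A10 turned to −0.74 without basal replicate 1 and reached 1.14 without basal replicate 2. The cause was not tested.

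Over all genes normexp called 648 higher and 1007 lower, and the median over probes 824 and 1058, against 3318 and 4465. Without centring the median change of all genes was 0.08 in place of −0.06, and 55.4% of the calls were higher in place of 42.6%. With loess 51.4% were higher.

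Same-numbered replicates deviated with a correlation of 0.02 and share only a number. With the replicate number as a block, 7 members (3 higher, 4 lower) and 70 member probes were called in the change, 0 members in the mock IP channel and 1 in the SMAD3 IP channel. Low signal relative to background and 4 arrays limit what these values can show.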
